A study of Mus musculus with 2 samples.

Results

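Ccl21a, Ccl19, Ccl25 and Cxcl12 encode the homeostatic chemokines that guide developing thymocytes, and they were chosen by name, 4 of the 55487 gene features in the deposited matrix. They were read in thymic epithelial cells of 6-week-old female NOD, BALB/c and C57BL/6 (B6) mice, 2 mice of each strain, with no allele or treatment named for any of them. Thymi were digested, leukocytes bearing CD45 were depleted, and medullary thymic epithelial cells (mTEC) with low MHC class II that stained for neither podoplanin (Pdpn) nor CD104 (the product of Itgb4) were sorted, a fraction rich in mimetic cells, which are mTEC that take on programs of other tissues. Each mouse carried 1 hashtag antibody, and all 6 mice were captured as 1 pool by the 10x Genomics 3' method, so strain and hashtag go together. The labels give both NOD hashtags 1 replicate number, but the series' design text counts 2 mice in every strain, so they stand here as NOD mouse 1 and NOD mouse 2.

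CCL21 and CCL19 are ligands of the receptor CCR7, which draws thymocytes from the cortex into the medulla after positive selection. Ccl21a is the gene behind most CCL21 of the mouse thymic medulla, and its protein has a long basic tail that holds it on matrix and cell surfaces, whereas CCL19 lacks that tail. CCL25 acts through CCR9 and attracts early progenitors and thymocytes. CXCL12 acts through CXCR4 and holds immature thymocytes in the cortex. A droplet library of this kind counts unique molecular identifiers (UMIs), each a captured RNA molecule, near the 3' end of a transcript. All levels below are CPM, a gene's UMIs over the total of the summed cells, scaled to 1000000.

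The 2 CCR7 ligands sit side by side. On mm10, Ccl19 (ENSMUSG00000071005.7) lies on the minus strand at chr4:42754525-42756577 and Ccl21a (ENSMUSG00000094686.1) on the same strand at chr4:42772860-42773993, with 16282 bases between them. Cxcl12 (ENSMUSG00000061353.11) is at chr6:117168535-117181367 and Ccl25 (ENSMUSG00000023235.14) at chr8:4325210-4360020, both on the plus strand. Chromosome 4 also carries near-identical copies of the CCR7 ligand genes, so reads of Ccl21a and its copies can be hard to assign. The 402 coding bases of Ccl21a and Ccl21b differ at 2 positions (99.5% identical), T84A and C194T, counted from the first coding base with the Ccl21a base first. The stretches around these positions are shown because they are all that separates the 2 coding sequences (GENCODE M21 transcripts, coding strand, capitals mark the differing base).
Ccl21a, coding bases 70 to 99: agtgatggagggggTcaggactgctgcctt
Ccl21b, coding bases 70 to 99: agtgatggagggggAcaggactgctgcctt
Ccl21a, coding bases 180 to 209: ggcaatcctgttctCaccccggaagcactc
Ccl21b, coding bases 180 to 209: ggcaatcctgttctTaccccggaagcactc

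Little was counted on the copies. Over all assigned cells, 6 other Ccl21 features held 47 UMIs, 0.0952% of the family, against 49326 UMIs on Ccl21a, and 3 other Ccl19 features held 1 UMI against 1296 on Ccl19. Counting that keeps uniquely placed reads loses those that fit several copies. The Ccl21b transcript compared above also holds 402 coding bases alone, against 870 bases in that of Ccl21a, and this library counts near the 3' end. The output of each copy is therefore uncertain. Of the copies, Ccl21d had the most, with 8 and 2 UMIs in NOD, 0 and 0 in BALB/c and 5 and 21 in B6 mice. Its RefSeq promoter window is 99.3% identical to that of Ccl21a, 297 of 299 aligned bases. The BALB/c mice thus had no Ccl21d UMI among 35682 Ccl21a UMIs, while Ccl21a itself was high in both.

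Of 3447 barcodes, 2527 passed the limits on detected genes and mitochondrial UMIs, and 1705 of these belonged to 1 mouse by their hashtags. NOD mice 1 and 2 gave 120 and 122 cells, BALB/c mice 412 and 595, and B6 mice 215 and 241, with median depths of 13501 to 14692 UMIs a cell. Cells were sorted into gates by marker genes, none of them a member, and 61 gated as leukocytes were kept apart from 1644 epithelial cells. H2-Ea, an MHC class II gene silenced in B6 and NOD by a promoter deletion, was 14.0 and 9.32 CPM in NOD epithelial cells, 952 and 815 in BALB/c and 54.7 and 24.1 in B6, so it followed the hashtags there. It did not separate the leukocyte-gated cells, where the strains had 2661, 3382 and 2315 CPM in the same order. No epithelial cell had 3 of 6 fibroblast markers, though Dcn was seen in 133 cells. Of the endothelial list, Cdh5 was at 0 UMIs and Pecam1 was seen in 103 cells. Single genes of other lists were common: Rgs5 of the pericyte list had 6285 UMIs in 603 cells. The cortical epithelium list was mixed, with 18 UMIs of Psmb11 but 4212 of Tbata, 6438 of Ctsl and 990 of Foxn1, and 3 or more of its 6 markers in 45 contractile-gene, 21 collagen VI-gene, 63 remaining immature and 23 Aire-stage cells. The part of such cells in the levels below was not tested. The sort removed cells with surface Pdpn and CD104, yet immature mTEC RNAs such as Krt5, Krt14 and Trp63 were read in 829, 810 and 845 epithelial cells. RNA of Itgb4 was read in 780 and of Pdpn in 193, and both genes are in the immature mTEC list.

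Ccl21a was the most abundant member, with 47966 UMIs in epithelial cells, and 89.8% of them lay in 3 gates of 542 cells grouped as immature mTEC. Of the 3, the contractile-gene and collagen VI-gene gates were set by their own lists, and their cells need not pass the immature mTEC list. Only the remaining 257 cells were gated on that list. Of the smooth muscle genes listed for the contractile-gene gate, Tagln, Acta2 and Myl9 were highest in it. Tpm2 was highest in muscle-gated and Mylk in neuroendocrine cells, and Cnn1 had 1 epithelial UMI. Ccl21a was highest in the contractile-gene gate, at 7198 and 6572 CPM in NOD mice and 9849 and 10644 CPM in BALB/c mice. The collagen VI-gene gate had 4462 and 4773 CPM in NOD mice and 3343 and 6195 CPM in BALB/c mice. In the remaining immature mTEC, named other immature mTEC in the plots, it was 1164 and 1270 CPM in NOD mice, 4457 and 5197 CPM in BALB/c mice and 2446 CPM in B6 mouse 2, the other B6 mouse having too few cells (9). Each of these sums but 1 stood above every epithelial sum of at least 10 cells outside the immature gates. The exception was NOD mouse 1 in the remaining immature mTEC, just under the highest keratinocyte-gated sum, where 6 mice ran from 14.5 to 1193 CPM.

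Set against the mean of the other gates, with the mouse as a block, Ccl21a was higher in contractile-gene cells (log2 difference 5.14 ± 0.72 SE, adjusted p = 2.47e-05, edgeR), where 16.3% of all genes tested were called. It was also higher in collagen VI-gene cells (4.11 ± 0.72, adjusted p = 1.11e-04; 35.9% of genes called) and the remaining immature mTEC (3.47 ± 0.64, adjusted p = 7.07e-04; 14.5% called). It was lower in tuft cells, the gate with the most cells (510), at −3.02 ± 0.94 (adjusted p = 0.0151; 34.6% called), with 42.6 ± 29.3 CPM (SD, 5 mice). That tuft call did not hold without B6 mouse 1 (adjusted p = 0.0535), BALB/c mouse 1 (0.0575) or NOD mouse 2 (0.0513). With sums of at least 20 cells, the calls in the collagen VI-gene, remaining immature and tuft gates were lost (adjusted p = 0.0982, 0.141 and 0.0687).

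**Figure D1:**
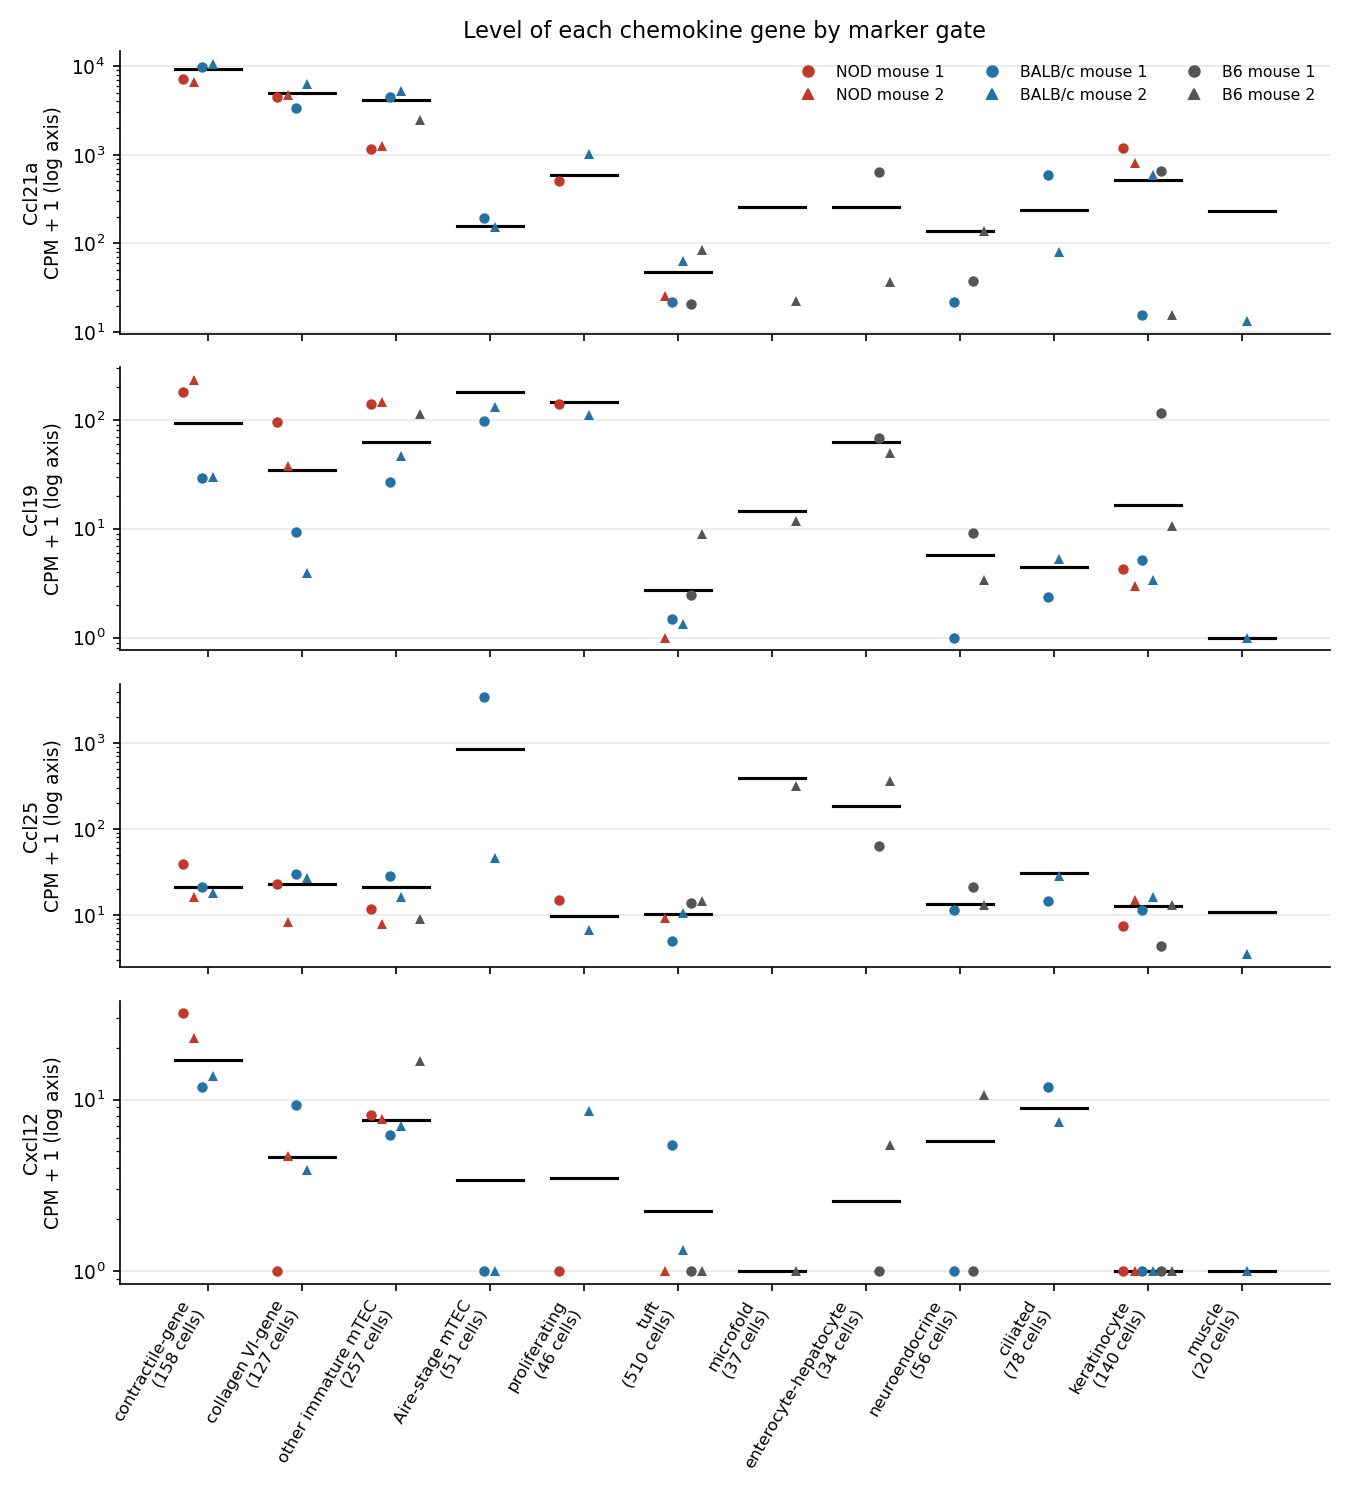
CPM + 1 of each chemokine gene (log axis) by marker gate. Points are mice with at least 10 cells in the gate, with NOD, BALB/c and B6 from left to right, and bars are the level over all cells of the gate. Over all cells of a gate, Ccl21a and Cxcl12 are highest in the contractile-gene gate (9352 and 16.1 CPM). The Ccl19 bar is highest in Aire-stage mTEC (179 CPM), but its points there lie among those of proliferating and contractile-gene cells. Those points are BALB/c mice, which were lower in contractile-gene cells (28.0 and 28.9 CPM). The Ccl25 bar in Aire-stage mTEC (862 CPM) rests on BALB/c mouse 1, and without HTODemux doublets and negatives it is 123 CPM, with 434 CPM in microfold cells.

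Nearly all cells grouped as immature carried the transcript. A Ccl21a UMI was seen in 98.7% of contractile-gene cells, 98.4% of collagen VI-gene cells and 89.5% of the remaining immature mTEC, and in 98.7%, 96.7% and 77.8% after each cell was thinned to 3000 UMIs. After thinning it was seen in 5.99% of tuft cells, whose median depth was 12828 UMIs, and in 16.7% of leukocyte-gated cells, whose median depth was 39021 UMIs. The mimetic gates of at least 20 cells ran from 5.99% to 16.1%, proliferating cells had 40.0% and Aire-stage mTEC 26.5%. Over all their cells Ccl21a was 588 CPM in proliferating cells, 158 CPM in Aire-stage mTEC and 540 CPM in leukocyte-gated cells. The leukocyte-gated cells also carried epithelial RNA, with Epcam at 455 CPM and 1116 CPM in epithelium, and Krt8 at 440 and 1679 CPM, so their shares are no clean measure of free RNA and low shares are not read as expression or as its absence. Within the contractile gate the median positive cell held 131 Ccl21a UMIs and the highest cell 504.

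Ccl19 had 1224 UMIs in epithelial cells and a different order of gates. Aire-stage mTEC were the 51 cells, of 309 passing a list of Aire-stage genes, that entered no other gate. Of that list Aire, Fezf2 and Cd40 were highest in them, but Cd80 and Ciita in myeloid or dendritic cells and Tnfrsf11a in microfold cells. The gate held 39 of the 212 epithelial cells with an Aire UMI. Ccl19 was 377 and 260 CPM there in NOD (8 and 4 cells), 97.1 and 131 CPM in BALB/c mice (11 and 16 cells) and 207 and 266 CPM in B6 mice (8 and 4 cells). Proliferating cells had 140 CPM in NOD mouse 1 and 110 CPM in BALB/c mouse 2, the mice with at least 10 such cells. Which gate was highest depended on how mice were combined: over all cells Aire-stage mTEC led with 179 CPM, and proliferating cells had 145 CPM. Over mice with at least 10 cells the means were 125 CPM in proliferating cells (the 2 mice just given), 117 ± 104 in contractile-gene (SD, 4 mice) and 114 ± 24.1 in Aire-stage cells (2 BALB/c mice). These means come from different mice and strains, so they do not rank the gates. In the BALB/c mice alone, contractile-gene cells had 28.0 and 28.9 CPM, below both Aire-stage values. In NOD mice they had 181 and 230 CPM. Contractile-gene cells had 92.0 CPM and the remaining immature mTEC 60.9 CPM over all their cells, with a wide gap between strains described further on. Tuft cells were at 1.72 CPM over 510 cells, and the 20 muscle-gated cells had no UMI among 711258. Epithelial cells with at least 1 Aire UMI held 141 CPM of Ccl19, and those with none 17.0 CPM, while for Ccl21a the same split gave 744 and 1952 CPM.

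The gate test called Ccl19 higher in Aire-stage mTEC (adjusted p = 1.77e-06; 16.7% of genes called), proliferating cells (4.40e-05; 15.2% called), contractile-gene cells (6.17e-05) and the remaining immature mTEC (8.84e-05), all by edgeR. The fold is not given, since it rests on the muscle gate at 0 UMIs and so on the prior count. Collagen VI-gene cells were not called (adjusted p = 0.157), but passed with 1 more marker (0.0463), with no filter (0.0268) and without B6 mouse 2 (0.0142), and had 94.9 and 36.6 CPM in NOD mice and 8.35 and 2.89 CPM in BALB/c mice. The Aire-stage sums of the test come from the 2 BALB/c mice alone, and the proliferating call was lost without BALB/c mouse 2 (adjusted p = 0.0706). Thinned to 3000 UMIs, 28.6% of Aire-stage, 28.9% of proliferating and 15.9% of contractile-gene cells had a Ccl19 UMI, against 3 of 60 leukocyte-gated cells. Of 51 thinned immature cells with a Ccl19 UMI, 48 also had one of Ccl21a, which 440 of all 495 had.

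Ccl25 was concentrated in few cells. Of its 2039 epithelial UMIs, 46.0% lay in 3 barcodes and 64.8% in 10, whereas the 3 highest cells held 3.45% of the Ccl21a and 11.7% of the Ccl19 UMIs. The 3 barcodes belonged to BALB/c mouse 1 and the Aire-stage gate, with 537, 217 and 183 Ccl25 UMIs. They also held 195, 171 and 242 UMIs of Tbata, a gene of the cortical epithelium list, but at most 1 UMI of Psmb11, the thymoproteasome gene that defines cortical epithelium. HTODemux, an alternative way to call hashtags, marked all 3 as doublets, with their leading hashtag at 86.8%, 89.4% and 94.6%.

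**Figure D2:**
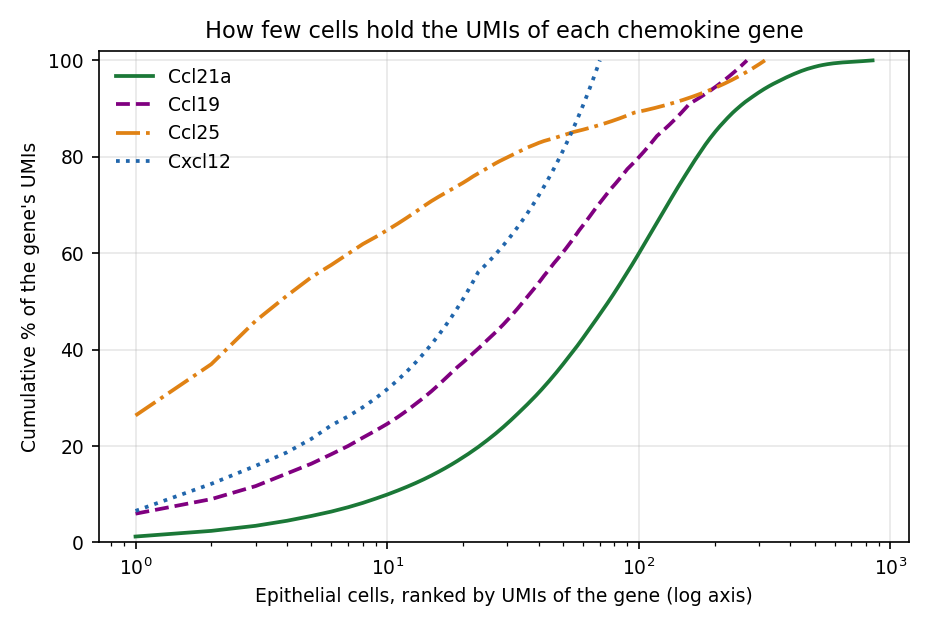
Cumulative percentage of each gene's UMIs (y) over epithelial cells ranked from the highest (x, log axis). The Ccl25 line starts at 26.3% with the first cell and passes 46.0% at the third, while Ccl21a needs 76 cells to pass the middle of the axis.

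Because of these barcodes, Aire-stage mTEC had 3467 CPM of Ccl25 in BALB/c mouse 1 and 45.1 CPM in BALB/c mouse 2, and, from few cells, 185 and 52.0 CPM in NOD and 228 and 16.6 CPM in B6 mice. The gate test called it higher there (log2 6.09 ± 0.74, adjusted p = 5.42e-06, edgeR), but not without the 3 barcodes (1.19, adjusted p = 0.287), without BALB/c mouse 1 (1.13, 0.292), with HTODemux singlets (1.30, 0.374) or with the leading hashtag at 90% or more (1.83, 0.137). A split chosen after the values were seen gave 1048 UMIs in the 12 Aire-stage cells with 20 or more Tbata UMIs and 24 in the 39 others. The 10 cells highest in Ccl25 held 2 more Aire-stage cells, both called singlets by HTODemux: 1 of NOD mouse 1, with 30 Ccl25 and 47 Tbata UMIs, and 1 of B6 mouse 1, with 52 and 95.

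Microfold cells, the mimics of the antigen-sampling cells of gut epithelium, had 211 and 858 CPM of Ccl25 in the BALB/c mice (5 and 4 cells) and 552 and 313 CPM in the B6 mice (9 and 17 cells). Both NOD mice had a single microfold cell with no Ccl25 UMI. Enterocyte-hepatocyte cells had 123 CPM in BALB/c mouse 2 (9 cells) and 62.3 and 357 CPM in the B6 mice. Tuft cells were at 9.52 ± 3.77 CPM (SD, 5 mice), below each of these BALB/c and B6 values. The microfold difference missed the threshold (log2 3.54 ± 1.11, adjusted p = 0.0511, edgeR; 8.43% of genes called) with the sum of 1 mouse, and so did the enterocyte-hepatocyte one (adjusted p = 0.0738; 7.94% called). The microfold difference passed without the 3 barcodes (4.07, adjusted p = 1.08e-05) and with HTODemux singlets (4.86, 8.89e-08). In thinned cells 44.1% of microfold cells had a Ccl25 UMI, against 10.0% of leukocyte-gated cells, of which thymocyte-gated cells had 4 of 12 (33.3%), and 3.39% of tuft cells.

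Cxcl12 was sparse, with 107 UMIs in 70 of 1644 epithelial cells (4.26%), and no cell held more than 7. The contractile-gene gate held 39 of them, with 30.8 and 21.9 CPM in NOD and 10.9 and 12.8 CPM in BALB/c mice, so both NOD mice were higher there, but the difference was not called (1.14 ± 0.52, adjusted p = 0.285, edgeR). The gate itself was called against the others (adjusted p = 0.00267), though not without B6 mouse 2 or with sums of at least 20 cells, and its fold rests on gates at 0. The remaining immature mTEC held 24 UMIs (adjusted p = 0.0605, and 0.0157 to 0.0495 under 5 of the alternatives) and ciliated cells 16 (adjusted p = 0.0846). No UMI was seen in 140 keratinocyte-gated cells, which allows a level of up to 1.05 CPM, that of 3 counts. Thinned, 3.97% of contractile-gene and 3.17% of remaining immature cells had a UMI, against 1.67% of leukocyte-gated cells, where 2 B-lineage cells held 9 of 10 UMIs.

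Over all epithelial cells, Ccl21a and Ccl19 differed between strains and Ccl25 and Cxcl12 did not pass the test. Ccl21a was 1849 and 2189 CPM in NOD mice, 1881 and 2316 CPM in BALB/c mice and 344 and 623 CPM in B6 mice. The B6 mice stood well under all others and the other strains overlapped. Ccl21a was higher in BALB/c than in B6 mice (log2 2.11 ± 0.30 SE, 4.31-fold, adjusted p = 0.0112, edgeR) and in NOD than in B6 mice (2.16 ± 0.30, 4.47-fold, adjusted p = 0.00481), and the difference of NOD from BALB/c mice was 0.05 ± 0.29 (adjusted p = 0.935). Of the 4 members 2 were called in BALB/c against B6, where 11.0% of all genes were, 2 in NOD against B6 (28.1%) and 1 in NOD against BALB/c (9.32%). The BALB/c call was lost without BALB/c mouse 2 (1.94, adjusted p = 0.0710).

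**Figure D3:**
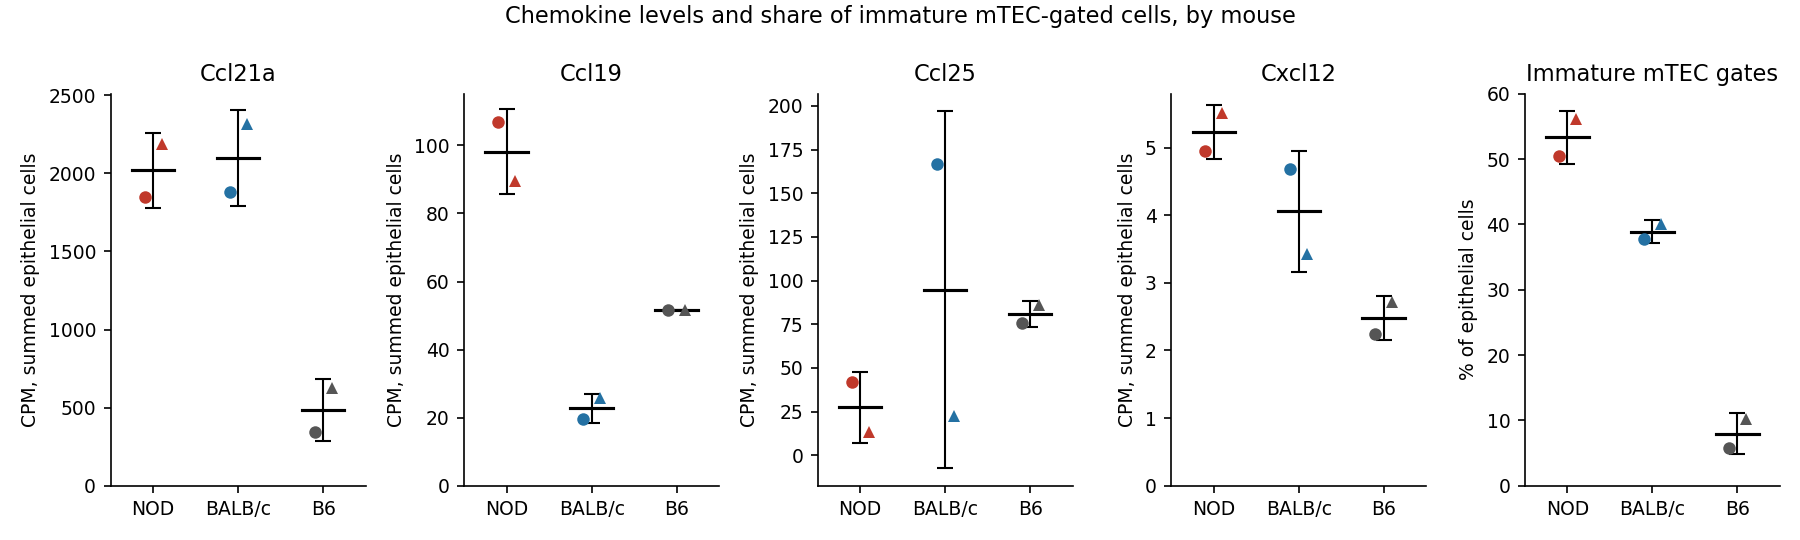
CPM of each chemokine gene in summed epithelial cells of each mouse, and the percentage of epithelial cells in the 3 immature mTEC gates (right panel). Points are mice (circles mouse 1, triangles mouse 2), bars the mean and SD of 2 mice. B6 mice are lowest for Ccl21a (344 and 623 CPM) and for immature cells (5.74% and 10.2%), and BALB/c mice are lowest for Ccl19 (19.7 and 25.8 CPM).

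The immature gates held 50.4% and 56.2% of epithelial cells in NOD mice, 37.7% and 40.1% in BALB/c mice and 5.74% and 10.2% in B6 mice. B6 mice were thus lowest in this share as in Ccl21a, whereas NOD mice had a larger share in the 3 gates than BALB/c mice and overlapped with them in Ccl21a. In the remaining immature mTEC alone the shares were 16.8% and 12.4% in NOD, 19.6% and 21.1% in BALB/c and 4.31% and 6.22% in B6 mice. The part of the share in the Ccl21a level was not tested. Within these gates summed as 1, Ccl21a was 4301 and 4558 CPM in NOD mice (57 and 68 cells) and 6193 and 7046 CPM in BALB/c mice (150 and 232 cells). B6 mice had 3884 and 5878 CPM (12 and 23 cells), so in this sum they were no longer apart. The sum mixes gates: collagen VI-gene cells were 54 of 125 in NOD, 70 of 382 in BALB/c and 3 of 35 in B6 mice. By gate, B6 mice had 6602 and 16080 CPM in contractile-gene cells (3 and 6 cells). In collagen VI-gene cells B6 mouse 2 had 15315 CPM (3 cells). The part of this mix was not tested. With the 3 gates as 1, a comparison added after the cell numbers were seen, the difference was 0.42 ± 0.18 for BALB/c against B6 (adjusted p = 0.249; 4.89% of genes called), −0.10 ± 0.18 for NOD against B6 (0.859; 4.64% called) and −0.52 ± 0.18 for NOD against BALB/c (0.171; 4.44% called), by edgeR. Without B6 mouse 2 the first was called (0.77, adjusted p = 4.79e-04), and without either B6 mouse so was the last (−0.52, 0.00169 without mouse 1 and 0.00167 without mouse 2).

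In 2 single gates NOD mice had less Ccl21a than BALB/c mice. In contractile-gene cells, with the values given above, the difference was −0.51 ± 0.11 (adjusted p = 0.00843, edgeR; 4.74% of genes called), and both NOD mice were below both BALB/c mice. It was lost without NOD mouse 2 (−0.47, adjusted p = 0.121). In the remaining immature mTEC it was −1.86 ± 0.19 (adjusted p = 1.61e-04; 8.22% called), again without overlap, but −0.47 (0.783) with HTODemux singlets. Collagen VI-gene cells gave 0.03 ± 0.42 (adjusted p = 0.992; 1.11% called). Keratinocyte-gated cells ran the other way without passing the test, with 1193 and 813 CPM in NOD mice and 14.5 and 595 CPM in BALB/c mice (1.73 ± 2.16, adjusted p = 0.773). With the cell type as a term and all gates with enough cells, Ccl21a differed by 0.54 ± 0.77 for BALB/c against B6 (adjusted p = 0.853, limma; 2.97% of genes called), 0.46 ± 0.84 for NOD against B6 (0.800; 7.37% called) and −0.08 ± 0.53 for NOD against BALB/c (0.949; 9.11% called). That fit holds no B6 sum of contractile-gene, collagen VI-gene or proliferating cells and 1 of the remaining immature mTEC.

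Ccl19 ran in another strain order. Over all epithelial cells it was 107 and 89.4 CPM in NOD mice, 19.7 and 25.8 CPM in BALB/c mice and 51.6 and 51.7 CPM in B6 mice, with no overlap between strains. It was higher in NOD than in BALB/c mice (log2 2.21 ± 0.18, 4.64-fold, adjusted p = 0.00164, edgeR) and in NOD than in B6 mice (1.03 ± 0.18, 2.04-fold, 0.00623), and lower in BALB/c than in B6 mice (−1.18 ± 0.18, 0.00899). The last call was lost narrowly without B6 mouse 1 (adjusted p = 0.0501), B6 mouse 2 (0.0522) or BALB/c mouse 1 (0.0513). The share of immature cells, given above, ran in another order (NOD, BALB/c, B6), and its part in the Ccl19 level was not tested.

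The gap between NOD and BALB/c mice was also seen within gates. Contractile-gene cells had 181 and 230 CPM of Ccl19 in NOD mice and 28.0 and 28.9 CPM in BALB/c mice, a difference of 2.92 ± 0.25 (7.59-fold, adjusted p = 2.09e-07, edgeR). The 3 and 6 contractile-gene cells of the B6 mice had 129 and 236 CPM, nearer to NOD, and were too few to test. The remaining immature mTEC had 138 and 145 CPM in NOD mice, 26.0 and 45.8 CPM in BALB/c mice and 57.2 and 111 CPM in B6 mice, with NOD against BALB/c at 2.05 ± 0.31 (4.15-fold, adjusted p = 0.00299), a call lost without BALB/c mouse 1 (1.69, 0.104). In both gates every NOD value was above every BALB/c value. The same gates thus held more Ccl19 and less Ccl21a in NOD mice than in BALB/c mice.

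With the 3 immature gates as 1, Ccl19 was 141 and 154 CPM in NOD mice, 24.4 and 35.4 CPM in BALB/c mice and 68.0 and 135 CPM in B6 mice. BALB/c mice were below both other strains, in sums that mix the 3 gates in different parts by strain. The differences were 2.33 ± 0.25 for NOD against BALB/c (adjusted p = 3.96e-05, edgeR), −1.82 ± 0.31 for BALB/c against B6 (0.00238, lost without B6 mouse 2 at −1.14 and 0.132) and 0.51 ± 0.28 for NOD against B6 (0.414). The fit with the cell type as a term holds no B6 sum of contractile-gene, collagen VI-gene or proliferating cells. Its B6 tuft sums had 2 and 10 Ccl19 UMIs, and its B6 keratinocyte sums 34 and 4. In that fit the differences, in the same order, were 1.99 ± 0.44 (adjusted p = 0.00388, limma), −2.18 ± 0.53 (0.0179) and −0.19 ± 0.58 (0.888). The first of these was lost without NOD mouse 2 (1.85, 0.0811), and the second without B6 mouse 1 (−1.90, 0.0513), BALB/c mouse 1 (−2.05, 0.132) or NOD mouse 2 (−2.06, 0.0554), with HTODemux singlets (−1.80, 0.255), with the leading hashtag at 90% or more (−2.19, 0.0664) and with sums of at least 20 cells (−2.19, 0.0722).

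**Figure D4:**
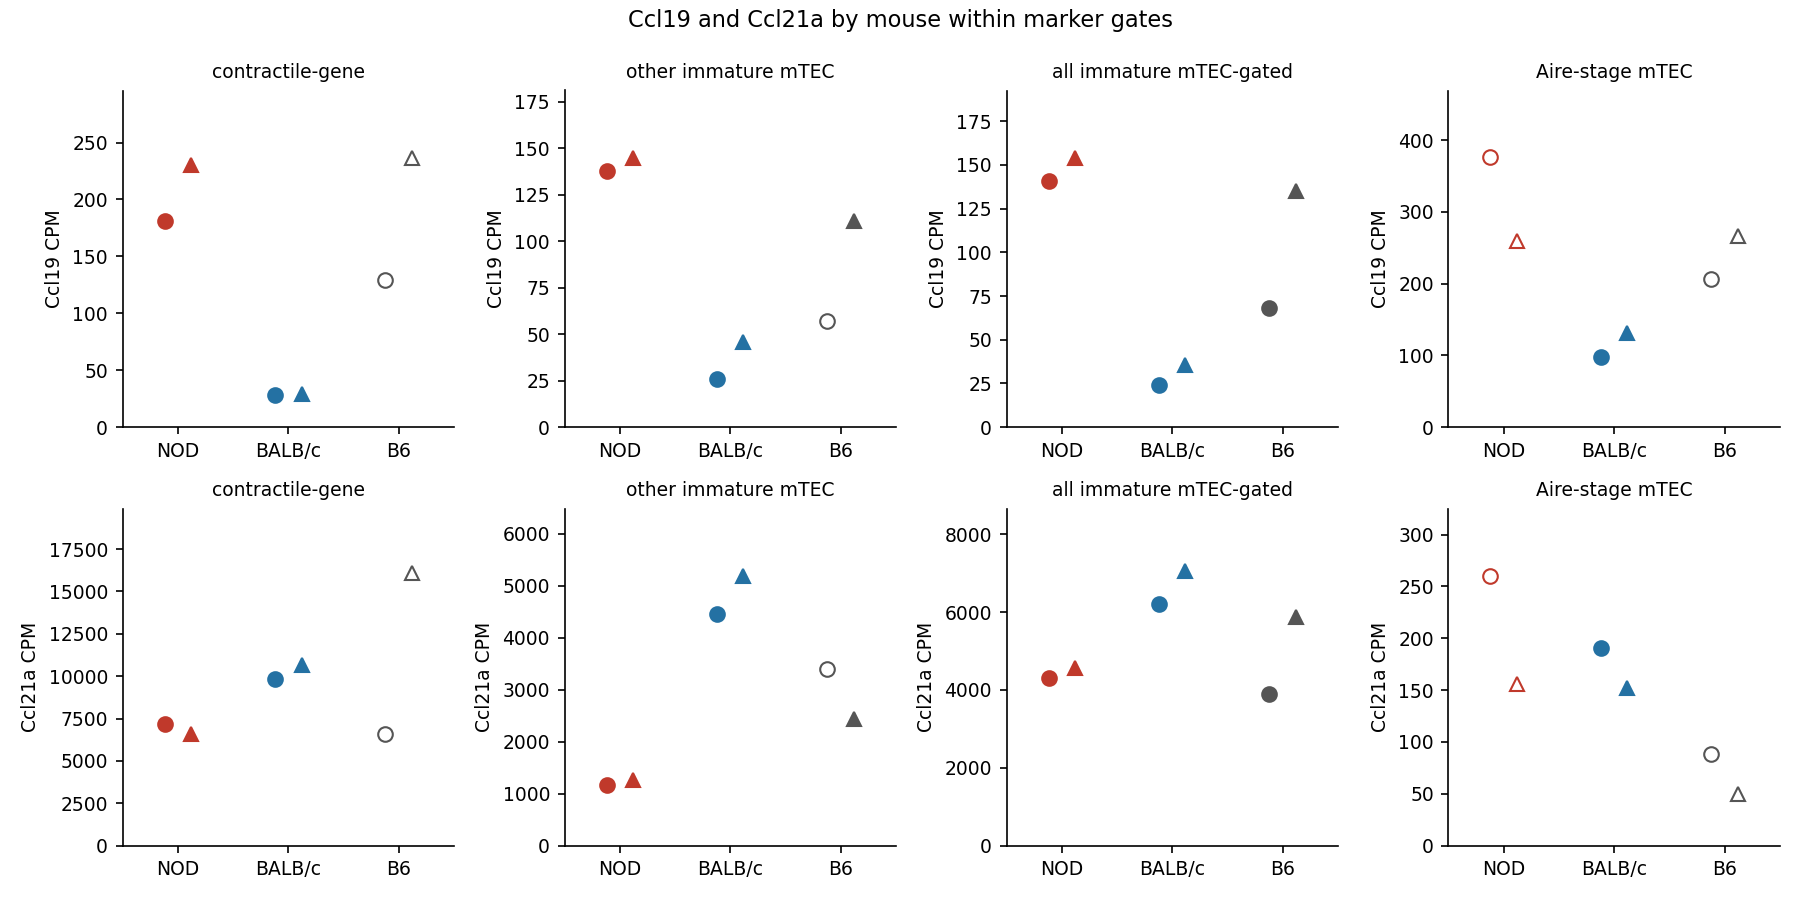
Ccl19 (upper row) and Ccl21a (lower row) CPM of each mouse in 3 immature selections and Aire-stage mTEC. Circles are mouse 1 and triangles mouse 2, and open symbols are mice with under 10 cells. In contractile-gene cells NOD mice are above BALB/c mice for Ccl19 (181 and 230 against 28.0 and 28.9 CPM) and below them for Ccl21a (7198 and 6572 against 9849 and 10644 CPM).

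Outside the immature gates the Ccl19 order was not uniform. Proliferating cells had 140 and 140 CPM in NOD mice, 239 and 110 CPM in BALB/c mice and 295 and 152 CPM in B6 mice, with 2 to 17 cells a mouse, and the strains overlapped. Whether the NOD against BALB/c difference varied between contractile-gene, collagen VI-gene, remaining immature and keratinocyte cells was tested as an interaction with limma. No member was called: the adjusted p was 0.695 for Ccl19, 0.716 for Ccl21a and 0.926 for Ccl25, where 0.382% of genes were called.

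Ccl25 over all epithelial cells was 41.7 and 13.1 CPM in NOD mice, 167 and 22.7 CPM in BALB/c mice and 75.8 and 86.1 CPM in B6 mice. The BALB/c mice were far apart and the B6 mice close together, and no comparison was called (adjusted p = 0.936 for BALB/c against B6, 0.437 for NOD against B6 and 0.463 for NOD against BALB/c, edgeR). With HTODemux singlets, which leave out the 3 high barcodes, it was lower than in B6 mice in BALB/c (−2.68, adjusted p = 0.00164) and NOD mice (−1.88, 0.00352). Without the 3 barcodes alone, BALB/c against B6 was −1.77 (0.0690). Microfold cells made up 0.885% and 0.826% of epithelial cells in NOD mice, 1.26% and 0.692% in BALB/c mice and 4.31% and 7.56% in B6 mice. Their Ccl25 difference from the other gates missed the threshold in the main fit, and those of NOD mice had no Ccl25 UMI. The part of microfold cells in the level was not tested.

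Cxcl12 over all epithelial cells was 4.95 and 5.51 CPM in NOD mice, 4.69 and 3.42 CPM in BALB/c mice and 2.25 and 2.71 CPM in B6 mice, from 8 to 33 UMIs a mouse. B6 mice were lowest without overlap, but no comparison was called (adjusted p = 0.0956 for NOD against B6, 0.352 for BALB/c against B6 and 0.494 for NOD against BALB/c, edgeR). NOD against B6 passed with HTODemux singlets (1.72, adjusted p = 0.0490). Within the 3 immature gates as 1 Cxcl12 was 13.6 and 12.7 CPM in NOD, 7.59 and 7.83 CPM in BALB/c mice, and 9.71 and 11.8 CPM in B6 mice, and none of the differences was called (adjusted p = 0.427 to 0.886).

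The receptors of the 4 chemokines are carried by thymocytes. Over all epithelial cells Ccr7, Ccr9 and Cxcr4 were low, at 5.69, 4.10 and 6.82 CPM, but Ccr7 in microfold cells stood above its leukocyte-gated level. Ccr7 reached 109 CPM in microfold cells, Ccr9 at most 9.90 CPM in proliferating cells and Cxcr4 at most 44.6 CPM in ciliated cells, with 46.9, 22.6 and 49.7 CPM in leukocyte-gated cells. None of the 3 was called between strains over all epithelial cells. Ackr4, an atypical receptor that scavenges CCL19, CCL21 and CCL25, was 2.48 and 3.39 CPM in NOD mice, 15.7 and 15.7 CPM in BALB/c mice and 22.3 CPM in B6 mouse 1, with B6 mouse 2 close to it. Ackr4 was lower in NOD than in B6 (−2.74 ± 0.28, adjusted p = 0.00115, edgeR) and BALB/c mice (−2.31 ± 0.28, 0.00633). Ackr4 was highest in tuft cells (43.3 CPM), which made up 7.08% and 8.26% of epithelial cells in NOD mice, 29.6% and 29.9% in BALB/c mice and 53.6% and 39.6% in B6 mice, and with the cell type as a term it was not called (−0.47, adjusted p = 0.586, and −0.08, 0.936, limma).

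Of 15 other thymic chemokines, 12 were tested over all epithelial cells, with medians of 0.40 for BALB/c against B6, 0.61 for NOD against B6 and 0.29 for NOD against BALB/c beside 0.01, −0.03 and −0.02 over all genes. Cxcl11, a ligand of CXCR3, was 83.8 and 75.4 CPM in NOD mice, 374 and 468 CPM in BALB/c mice and 34.4 and 60.9 CPM in B6 mice. It was higher in BALB/c than in B6 mice (3.13 ± 0.29, adjusted p = 0.00332, edgeR) and lower in NOD than in BALB/c mice (−2.30 ± 0.28, 0.00939), the opposite of Ccl19 in both comparisons. With the cell type as a term the first was not called (3.47-fold, adjusted p = 0.0638, limma) and the second was (−2.50, 4.78e-06). Cxcl10, another CXCR3 ligand, was higher in NOD than in B6 mice (2.10 ± 0.37, 0.0128), but not with the cell type as a term (0.32, 0.765) or in the immature gates (0.73, 0.468). Ccl20, a CCR6 ligand used here as a microfold marker, was lower in BALB/c and NOD than in B6 mice (−3.00 and −6.74) and lower in NOD than in BALB/c mice (−3.73), and with the cell type as a term none of these was called (−0.04, −0.80 and −0.76, adjusted p = 0.992, 0.575 and 0.509). In the 3 immature gates, where 9 of the list were tested, Ccl27a, a CCR10 ligand that also has annotated copies with few UMIs, was higher in NOD than in BALB/c (3.03-fold, adjusted p = 5.48e-04) and B6 mice (2.12-fold, 0.0460). There Cxcl16 was also higher (1.18) and Cxcl14 lower (−2.34) in NOD than in B6 mice, and Cxcl11 kept its order in BALB/c against B6 (1.91) and NOD against BALB/c (−2.57), all called. In NOD against B6 with the cell type as a term, Ccl27a was −0.41 (adjusted p = 0.561, limma). Cxcl16 was −0.36 (0.392) and Cxcl14 −0.81 (0.617) in that comparison, so none of them was called. Ccl27a was still called in NOD against BALB/c with that term (1.13, 0.00701).

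The lymphotoxin, RANK and CD40 routes to NF-κB are known to govern medullary chemokines. All 7 genes of that list were tested, with medians of −0.16, 0.19 and 0.21 over all epithelial cells in the order of comparisons above. Cd40 was higher in BALB/c than in B6 mice (0.91 ± 0.18, adjusted p = 0.0226, edgeR), in NOD than in B6 mice (1.70 ± 0.19, 0.00150) and in NOD than in BALB/c mice (0.79 ± 0.18, 0.0377). Relb was higher in NOD than in BALB/c mice (0.53 ± 0.12, 0.0364). In the 3 immature gates none of the 7 was called. With the cell type as a term Cd40 was not called (−0.31, 0.33 and 0.64, adjusted p = 0.806, 0.662 and 0.109, limma), nor Relb in NOD against BALB/c (0.15, 0.566), while Tnfrsf11a, the gene of RANK, was lower in BALB/c (−0.78 ± 0.16, adjusted p = 0.00309, limma) and NOD (−0.63 ± 0.17, 0.0216) than in B6 mice. Of the 4 thymocyte niche factors, Foxn1, the master regulator of thymic epithelium, was higher in NOD than in B6 mice over all epithelial cells (0.97 ± 0.15, adjusted p = 0.00449), but with the cell type as a term it was −0.27 (0.574) and in the immature gates 0.23 (0.767). None of the other 3 was called over all epithelial cells. Il7, the thymocyte survival factor, was lower than in B6 mice within the immature gates of BALB/c (−1.19 ± 0.24, 0.0110) and NOD mice (−1.60 ± 0.26, 0.00229). With the cell type as a term Il7 was called in NOD against B6 (−1.27, adjusted p = 0.0430, limma). It was not called in BALB/c against B6 with that term (−0.77, 0.320).

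Genes outside the marker lists with gate patterns most like each member were ranked by Pearson's r of log2(CPM + 1) over 12 gates, as a description over gates that share mice and one library. For Ccl21a these were Pard6g (r = 0.957), Fst, Cyp1b1, Gm15867 and Slitrk4 (0.934). For Ccl19 they were Brinp2 (0.935), Rab5c, Irf4, AU020206 and Irf8 (0.905). Irf4 and Irf8 are transcription factors of lymphoid and myeloid cells. For Ccl25 they were Gm45515 (0.943), Fbxw10, Tango2, Marco and Slc51a (0.919), and for Cxcl12 Gm35188 (0.922), Col6a4, Scn3b, Pced1b and Ctnnd2 (0.874).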

How the data were processed

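The deposited matrix holds raw UMI counts of genes and hashtags. Per the submitters' processing notes, Cell Ranger 7.0.0 and the mm10 build were used. The annotation release is not given in the sources used here; positions are those of GENCODE M21, matched by gene identifier. The labels say nothing of doublets.

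Barcodes with at least 500 genes and under 15% mitochondrial UMIs were kept, and a barcode was given to a mouse when its leading hashtag held at least 80% of the UMIs of the pool's 6 hashtags, of at least 100 in all (330 had fewer UMIs and 492 a lower share; 65 assigned cells lay at 80 to 85%). The rule removes barcodes with mixed hashtags, but not doublets of 1 mouse, nor all those of 2. HTODemux, run as an alternative, called 427 of the 2527 barcodes doublets, some assigned cells among them, and no caller based on expression was run. A cell entered a gate with at least 3 markers detected and a summed marker level of at least 16 UMIs per 10000 (8 for collagen VI-gene, Aire-stage and proliferating cells, 4 for leukocyte lineages, with at least 1 Ptprc UMI). Cells in which no mimetic list led another by a factor of 2 (37) and cells in no gate (85) were left out of gate tests. The members and lists were chosen with earlier results of these data known.

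Counts were summed per mouse, or per mouse and gate with at least 10 cells. Strains were compared on epithelial sums, and within gates, by edgeR 4.0.16 (quasi-likelihood test, TMM, filterByExpr, robust), gates with the same test and the mouse as a block, and strains with cell type as a term with limma 3.58.1 voom (mouse as block). P-values were adjusted by Benjamini-Hochberg over all genes of a fit, at 0.05. With 2 mice a strain, p-values rest on the spread between these mice, moderated by that of all genes in the fit. The fit with cell type as a term had 29 sums of the 6 mice and a block correlation of −0.0357. It thus took gate sums of the same mouse as nearly independent, and its p-values rest largely on the spread between gate sums. A sum cannot tell fewer cells of a type from less RNA per cell. For shares, cells were thinned to 3000 UMIs, leaving out 100 shallower cells; exact binomial intervals are at 95% and cover counting error only. On simulated data, with 200 genes changed, the BALB/c against B6 fit found 26, 196 and 200 at log2 changes of 1, 2 and 3. The false calls were 1, 6 and 9 in the same order. Recovery at the levels and spread of Ccl25 or Cxcl12 was not tested.

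Alternatives were other hashtag rules (90%, and HTODemux of Seurat 5.3.0), 10% mitochondrial UMIs, 1 more marker, all assigned cells, library size alone, no filter, DESeq2 1.42.0, sums of 20 cells, each mouse left out, and the replicate number as a block; 4 were added after seeing the data. Named genes were the 4 members, genes of the fixed receptor, chemokine, NF-κB and niche factor lists that passed a strain test (where none did, those highest in level), and the 5 genes most like each member over gates of at least 20 cells, among those with at least 10 CPM in 1 gate.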

Additional observations from a re-analysis of the deposited data

Results flagged for a closer look

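In 19 groups of 4 to 6 mice looked at, 1 mouse stood apart from the others in 4, judged by its gap to the nearest mouse over the range. The limit used is meant to flag about 1 in 20 groups of normally distributed values. The flagged groups hold mostly low CPM, some at 0, so that rate need not hold and 4 is not read as an excess. Ccl19 was 7.86 CPM in tuft cells of B6 mouse 2, with the other mice at most 1.48 CPM, and 115 CPM in keratinocyte-gated cells of B6 mouse 1, where 32 of 34 UMIs lay in 1 cell and the other mice had at most 9.67 CPM. Cxcl12 was 15.8 CPM in the remaining immature mTEC of B6 mouse 2, from 4 UMIs, and 4.45 CPM in tuft cells of BALB/c mouse 1, from 9 UMIs of which 6 lay in 1 cell.

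The 822 passing barcodes that could be given to no mouse, with a median of 24400 UMIs, entered no comparison and also held the members, at 323 CPM of Ccl21a, 55.4 CPM of Ccl19, 57.8 CPM of Ccl25 and 2.45 CPM of Cxcl12.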

How the results depend on the processing

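The Ccl19 differences between strains over all epithelial cells kept their direction under every alternative run. Library size alone moved the median of all genes by −0.10 in NOD against B6, −0.11 in NOD against BALB/c and −0.34 in the microfold gate. Values below are log2 differences that changed direction or side of the threshold, beside those given with the results, and the cause was not tested. Those of Ccl19 and Cxcl12 in a gate against the other gates can rest on gates at 0 UMIs and so on the prior count. They are given for direction and call alone, also where each mouse was left out.

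With HTODemux singlets, epithelial values were −2.68 (Ccl25, BALB/c against B6), 1.72 (Cxcl12) and −1.88 (Ccl25) for NOD against B6, and −0.13 (Ccl21a) and 0.80 (Ccl25) for NOD against BALB/c. With type as a term they were −1.80 (Ccl19, BALB/c against B6), 0.45 (Ccl19, NOD against B6) and 0.44 (Ccl25, NOD against BALB/c). By gate, Ccl25 was 1.30 (Aire-stage) and 4.86 (microfold). Within gates Ccl21a was −0.15 (collagen VI) and −0.47 (remaining immature) for NOD against BALB/c, and 0.03 in the 3 immature gates for NOD against B6, and Ccl25 there was 0.45 for NOD against BALB/c. With the leading hashtag at 90%, Ccl25 was −0.97 (epithelial, BALB/c against B6), 1.83 (Aire-stage) and 3.81 (microfold), Ccl19 −2.19 (type as a term, BALB/c against B6) and Ccl21a 0.17 (3 immature gates, NOD against B6). Without the 3 barcodes, Ccl25 was −1.77 (BALB/c against B6), 0.32 (NOD against BALB/c), 1.19 (Aire-stage) and 4.07 (microfold). With 1 more marker, type as a term gave −0.10 (Ccl21a, BALB/c against B6), 0.33 (Ccl19) and −0.70 (Ccl21a) for NOD against B6 and 0.20 (Ccl25, NOD against BALB/c), microfold Ccl25 was 3.85 (also by DESeq2) and collagen VI Ccl21a −0.10. In the collagen VI gate Ccl19 passed with 1 more marker (1.38) and no filter (1.30). In the remaining immature gate Cxcl12 passed at 90% (2.95), at 10% mitochondrial UMIs (2.26), with 1 more marker (2.18), library size alone (2.27) and no filter (2.25). Sums of 20 cells gave 1.62 (Cxcl12, contractile), −2.19 (Ccl19, BALB/c against B6) and 0.93 (Ccl19, NOD against B6). Library size alone gave −0.06 for Ccl21a in NOD against BALB/c, both epithelial and collagen VI. No filter gave 3.51 (Ccl25, microfold), and for Ccl21a −0.02 (collagen VI), 0.54 (3 immature gates, BALB/c against B6) and −0.56 (NOD against BALB/c).

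The numbers of genes called moved to 3467 (BALB/c against B6) and 3098 (NOD against BALB/c) with no filter, from 1712 and 1447. With type as a term they were 193 (BALB/c against B6), 128 (NOD against B6) and 158 (NOD against BALB/c) with sums of 20 cells, 461 at 90% and 479 with 1 more marker (NOD against B6), and 613 with 1 more marker (NOD against BALB/c), from 329, 818 and 1011. Thinned, 36.6%, 6.47%, 5.95% and 1.49% of epithelial cells had a UMI of Ccl21a, Ccl19, Ccl25 and Cxcl12.

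The replicate block was possible only for BALB/c against B6, where it gave −0.35 for Ccl25; same-numbered mice correlated at 0.061, so the numbers were not taken as pairs.

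Leaving out each mouse in turn gave the following lowest and highest values where a call or direction changed. Over epithelial cells, BALB/c against B6 ran from −1.41 to −0.98 (Ccl19), 1.75 to 2.61 (Ccl21a) and −1.82 to 1.02 (Ccl25), and NOD against BALB/c from −0.11 to 0.23 (Ccl21a) and −2.71 to 0.37 (Ccl25). With type as a term, BALB/c against B6 ran from −3.93 to −1.90 (Ccl19) and −0.34 to 1.77 (Ccl21a), NOD against B6 from −1.95 to 0.15 (Ccl19) and −0.43 to 1.10 (Ccl21a), and NOD against BALB/c from 1.84 to 2.38 (Ccl19), −0.67 to 0.58 (Ccl21a) and −0.30 to 0.29 (Ccl25). Within gates, NOD against BALB/c ran from −0.59 to −0.47 (Ccl21a) and −0.18 to 1.06 (Ccl25) in contractile-gene cells, −0.36 to 0.57 (Ccl21a) in collagen VI-gene cells and 1.69 to 2.55 (Ccl19) in the remaining immature mTEC. In the 3 immature gates, BALB/c against B6 ran from −2.14 to −1.14 (Ccl19), 0.17 to 0.77 (Ccl21a) and −1.82 to 0.48 (Ccl25), NOD against B6 from −0.35 to 0.25 (Ccl21a) and −2.07 to 0.23 (Ccl25), and NOD against BALB/c from −0.63 to −0.43 (Ccl21a) and −0.87 to 0.24 (Ccl25). Against the other gates, Ccl25 ran from 1.13 to 7.33 (Aire-stage) and 3.07 to 4.21 (microfold), Ccl19 from 0.23 to 1.81 (collagen VI) and 2.60 to 4.72 (proliferating), Cxcl12 from 3.76 to 4.31 (contractile) and 2.20 to 2.58 (remaining immature), and Ccl21a from −3.88 to −2.50 (tuft). Genes called ran from 374 to 2078 (BALB/c against B6), 2221 to 3618 (NOD against B6) and 296 to 1122 (NOD against BALB/c) over epithelial cells, and from 120 to 308, 349 to 762 and 409 to 1083 in the same order with type as a term.

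Depth limits Cxcl12, with 8 to 33 UMIs a mouse, and the B6 mice, whose immature gates hold 12 and 23 cells. Aire-stage sums rest on BALB/c mice, and the microfold and muscle gates on 1 mouse each.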
